A study of Bos taurus with 12 samples.

Results

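The genes described here encode the chaperones and stress sensors that keep proteins folded, in 2 branches: the heat shock genes of the cytosol and mitochondria, and the unfolded protein response genes of the endoplasmic reticulum (ER). They were taken from a list of 39 genes, 20 of the ER, 3 mitochondrial and 16 cytosolic. Each gene is represented by the probe set that carries its symbol alone and has the highest mean over the 12 arrays. Of the 39, 34 genes were measured this way, among 9155 named genes in all: 15 ER genes, all 3 mitochondrial genes and all 16 cytosolic genes. XBP1, ERN1, ATF6, EDEM1 and PDIA6 were not analysed here, so the sensors ERN1 and ATF6 are not part of what follows. The sensor gene EIF2AK3, outside the list, enters only in the counts of ER stress signalling genes.

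Chaperones bind newly made or misfolded proteins and help them fold. When unfolded proteins collect in the ER lumen, membrane sensors release the chaperone HSPA5 (BiP) and start a programme that raises ER chaperones, disulfide-forming enzymes and the degradation machinery. In the cytosol, heat shock factor HSF1 does the corresponding work for HSPA1A, DNAJB1, BAG3 and the HSP90 genes. In cattle the blastocyst hatches and then begins to elongate, and its trophoblast turns into a heavily secreting epithelium, which sends much of its protein output through the ER.

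The study measured bovine embryos at the blastocyst stage on Day 7 and as conceptuses on Day 13, when elongation begins. Blastocysts were made in vitro by fertilization in culture (IVF) or in vivo by superovulation of donor cows. Part of them were frozen on Day 7, and the others were placed in synchronized heifers, 10 to a recipient, and collected on Day 13, so that conceptuses of both origins spent the days between in a uterus. Each of the 4 groups has 3 arrays, and each array holds 1 pool: 25 blastocysts on Day 7, or 5 conceptuses on Day 13. A pool mixes all cell types of its embryos, and the labels do not say which animals contributed to it. A change in such a pool can come from more cells of a type or from more RNA per cell, and these cannot be told apart.

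Values are the log2 expression values the authors deposited. A probe set counts as above background where it exceeds 3.39, the 99th percentile of 48 control probe sets with no matching RNA, and all 34 genes did so on at least 3 arrays. Differences were tested with limma on all 24016 probe sets, and "passed the test" means that the p adjusted by the Benjamini-Hochberg method over that whole set was below 0.05. Markers of the labelled material were present: 12 of 14 trophoblast markers were measured and each was above background on some array, whereas none of 6 measured leukocyte markers was on any, and PTPRC stood at the floor of the scale, 2.23, on all 12 arrays. Mean trophoblast marker levels ran from 7.02 to 8.04 on the Day 7 arrays and from 9.01 to 10.8 on the Day 13 arrays. The mean of the list was thus higher on Day 13, but its genes did not move alike. Of the 12 measured markers 4 rose and none fell in vivo by the test, and 7 rose and 1 fell in vitro. PAG2 read 7.74 to 8.46 on Day 7 in vivo and 4.34 to 7.51 on Day 13 in vivo. TEAD4 read 7.16 to 8.51 on Day 7 in vitro and 5.34 to 6.01 on Day 13 in vitro. Hypoblast marker means were 8.01 to 8.42 on Day 7 and 9.18 to 9.48 on Day 13 in vivo, and in vitro 8.18 to 8.35 and 7.83 to 8.57. Of the 7 measured hypoblast markers 2 rose and none fell in vivo by the test, and none rose and 1 fell in vitro. In vivo APOA1 read 5.7 to 9.7 on Day 7 and 12.3 to 14.6 on Day 13, and APOE 6.2 to 6.6 and then 9.6 to 11.7. GATA6 went the other way in vivo, from 13.1 to 14.1 on Day 7 to 11.3 to 12.8 on Day 13. Means of the 2 measured inner cell mass markers were 5.56 to 6.92 on Day 7 and 4.54 to 5.89 on Day 13 in vivo, and in vitro 6.14 to 7.93 and 3.44 to 3.83. Of these, SOX2 was above background only on Day 7 in vivo array 1 (4.82) and Day 7 in vitro array 3 (4.64). On the other arrays the means therefore follow POU5F1. By the test neither marker passed in vivo, and 1 fell in vitro. Of the red cell genes, HBB read 5.08 to 8.49 on the Day 7 arrays and 2.23 to 3.42 on the Day 13 arrays and HBG read 4.01 to 8.997 and then 2.23 to 2.78, while HBA stayed at the floor throughout. Of 7 measured cumulus and granulosa cell markers, 5 were not above background on any array. TNFAIP6, from the same list, read 4.76 to 5.34 on the Day 13 in vivo arrays and 2.24 on the Day 13 in vitro arrays. CYP11A1 read 4.25 on Day 13 in vivo array 2 and 2.97 on the other arrays of that group. The part of these cell types in the results was not tested.

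Some arrays stand apart and bear on the results below. The poly-A RNAs added to each sample before labelling averaged 14.63 ± 0.45, 14.03 ± 0.64 and 14.45 ± 0.18 (log2, SD, n = 3) in the Day 7 in vivo, Day 7 in vitro and Day 13 in vivo groups. On the 3 Day 13 in vitro arrays they averaged 9.27, 10.50 and 12.99, so they read much lower on arrays 1 and 2 of that group. The hybridization control probe sets were low there as well. They averaged 10.38, 10.84 and 11.96 on those 3 arrays, against 11.84 to 13.29 on the arrays of the other groups. The 3′ minus 5′ difference of the GAPDH control probe sets, a measure of shortened or incompletely copied RNA, was 5.61 ± 0.040, 3.69 ± 0.43, 4.01 ± 1.0 and 3.10 ± 0.92 in the 4 groups in the order given here (n = 3 each). Day 7 in vivo array 3 had much higher cytosolic heat shock gene values than its 2 companions, as described with those genes. The part of RNA integrity in the results was not tested. For the spike-in level a covariate fit is given below. The lowest spike-in levels all lie in the Day 13 in vitro group, so that fit cannot separate the level from the group. The part of the spike-in level therefore stays untested. The number of arrays limits the precision of every value.

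**Figure D1:**
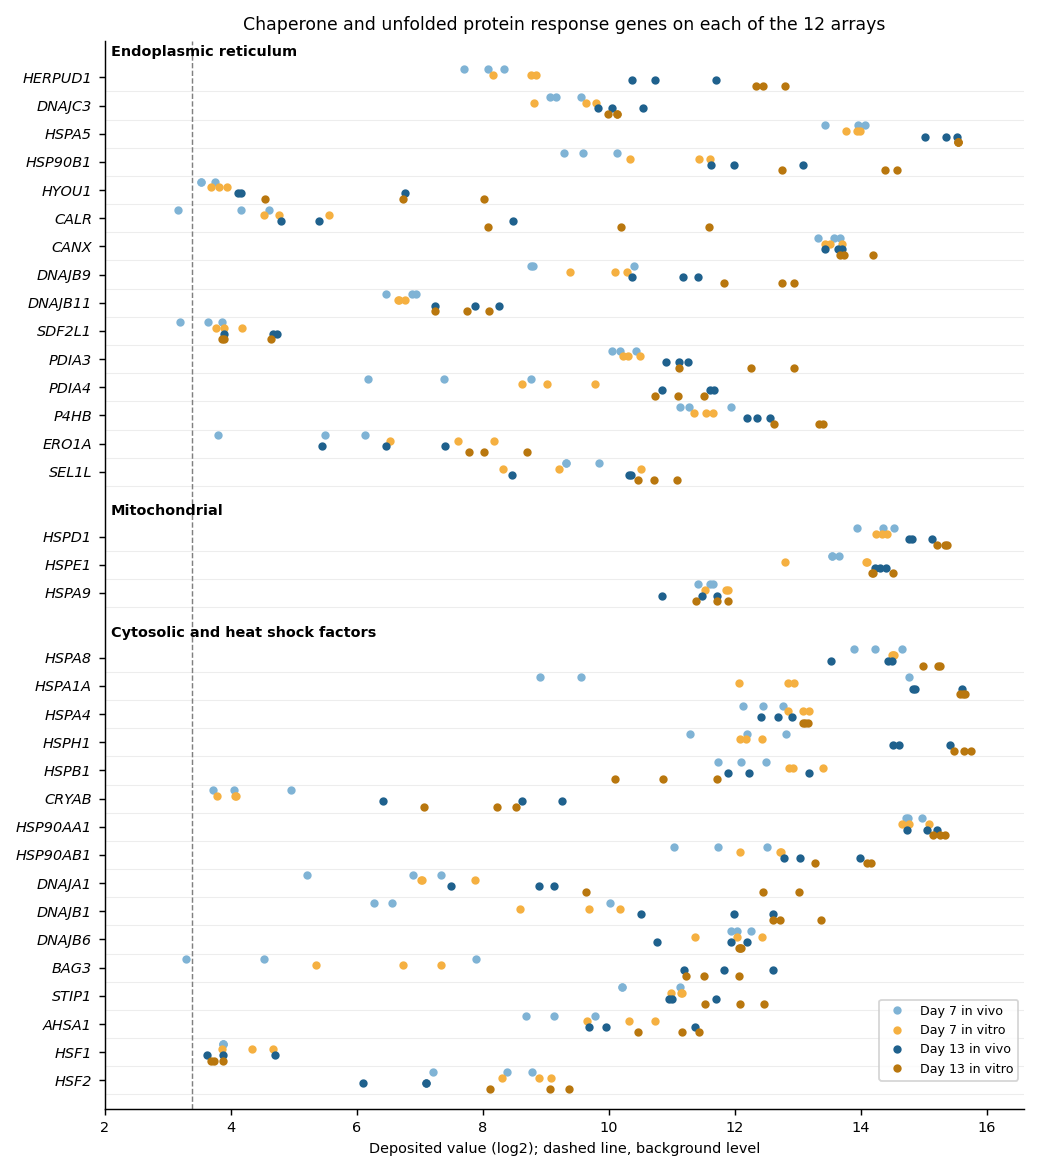
Deposited log2 value (x axis) of each of the 34 measured genes (y axis) on every array, coloured by group with 3 arrays each; the dashed line is the background level of 3.39. Levels of different genes are not comparable on this scale, but within a gene the Day 13 points lie to the right for most ER genes and for HSPH1, CRYAB, BAG3 and DNAJB1.

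From Day 7 to Day 13 most of the chaperone genes had higher values, whichever origin the embryos had. In embryos of in vivo origin 6 of 34 genes rose and none fell, and in embryos of in vitro origin 12 rose and 1, HSPB1, fell. BAG3, CRYAB, HERPUD1, HSPA5 and HSPH1 rose in both. The calls are 17.6% of the 34 genes in vivo and 38.2% in vitro. Over the 5803 named genes above background on at least 3 arrays, 8.32% passed the test in vivo (4.02% higher, 4.31% lower) and 16.8% in vitro (7.82% higher, 8.98% lower). Over all probe sets the shares were 3.79% and 7.51%. The difference was positive for 30 of 34 genes in vivo and 31 of 34 in vitro, with medians of 0.98 and 1.16 on the log2 scale. Over the 5803 genes 51.3% and 48.2% of the differences were positive, with medians of 0.02 and -0.02. These counts were not tested against each other. For none of the 34 genes did the day difference itself differ between origins beyond the threshold (limma interaction, 0 of 34, against 0.724% of the 5803 genes and 0.4% of all probe sets). At an unadjusted p below 0.05 there was 1, HSPB1, and the share of all genes at that unadjusted level was not counted.

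**Figure D2:**
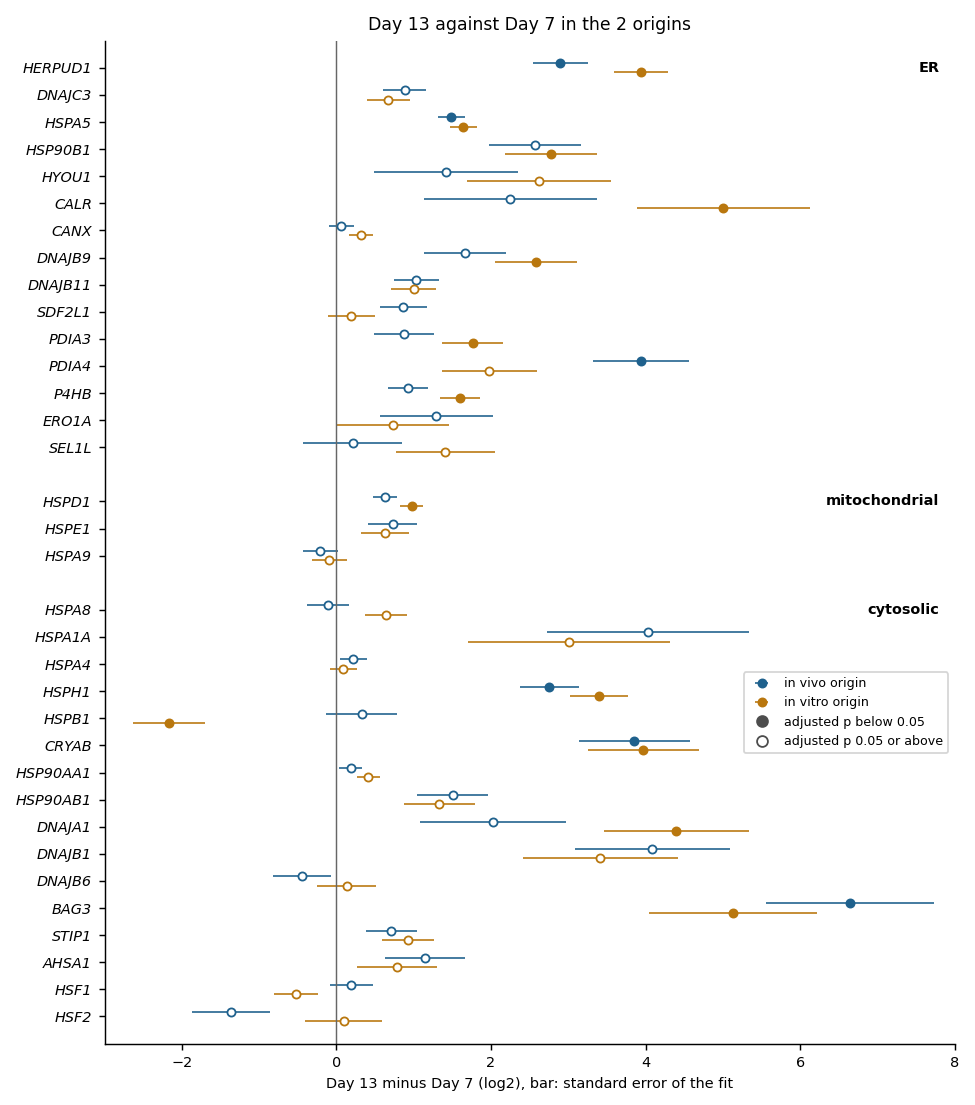
Day 13 minus Day 7 on the log2 scale (x axis) for each gene (y axis) in embryos of in vivo (blue) and in vitro (brown) origin, 3 arrays per group; bars are standard errors of the fit and filled points passed the test. All 15 ER genes lie right of 0 in both origins (13 of 15 in vivo after centring on ribosomal protein genes, 14 after quantile normalization), while cytosolic genes spread from HSPB1 (-2.17 in vitro) to BAG3 (6.64 in vivo).

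The counts by compartment were not tested against each other. Among the 15 ER genes 3 rose in vivo and 7 in vitro, and the medians were 1.29 and 1.64. Every ER difference was positive, although in vivo 2 of the 15 were negative after centring on ribosomal protein genes and 1 after quantile normalization. The 16 cytosolic genes had medians of 0.93 and 0.85, with 3 higher in vivo and 4 higher and 1 lower in vitro. In vivo the order of the 2 medians turned without Day 13 in vivo array 3 (ER 1.01, cytosolic 1.14) and without Day 7 in vivo array 3 (ER 1.17, cytosolic 1.22). Of the 3 mitochondrial genes, HSPD1 rose in vitro and no other call was made. The mean over the ER genes was 8.35 ± 0.18 (SD, n = 3 arrays) on Day 7 in vivo, 8.92 ± 0.095 on Day 7 in vitro, 9.84 ± 0.10 on Day 13 in vivo and 10.80 ± 0.36 on Day 13 in vitro. Each of these 4 groups of ER means lay wholly above the one before it in the deposited values. With each array's ribosomal protein mean subtracted the Day 7 groups overlapped, at -5.04 to -4.66 in vivo and -5.22 to -4.45 in vitro, and the other steps stayed apart. For the cytosolic mean the order of group means was the same, 9.75 ± 0.77, 10.40 ± 0.16, 11.36 ± 0.39 and 11.97 ± 0.29. The origins overlapped there on both days, since Day 7 in vivo array 3 stood at 10.63, above all Day 7 in vitro arrays, and Day 13 in vitro array 3 at 11.63, below Day 13 in vivo array 2 at 11.68. No test was run on these means, since the genes were picked with earlier results known.

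**Figure D3:**
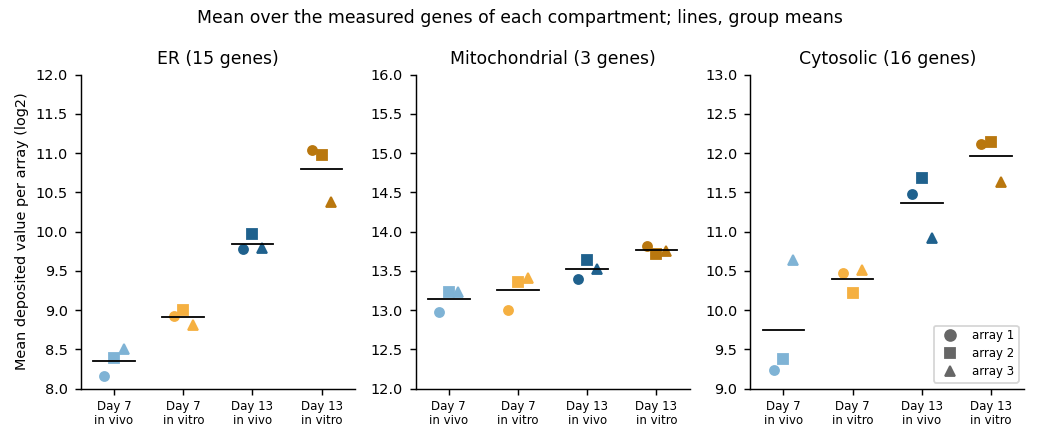
Mean deposited log2 value over the measured genes of each compartment (y axis) on each array, by group (x axis); marker shape gives the array number and the line the group mean. ER means run from 8.16 to 11.04 with the 4 groups in separate bands, of which those of Day 7 overlap after ribosomal protein centring, and in the cytosolic panel Day 7 in vivo array 3 lies at 10.63 against 9.23 and 9.38 for its companions.

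HERPUD1 is an ER membrane protein of the degradation machinery and a classical target of the unfolded protein response. It read 7.70, 8.08 and 8.34 on the Day 7 in vivo arrays and 8.85, 8.77 and 8.16 on the Day 7 in vitro arrays. On Day 13 it read 11.71, 10.37 and 10.73 in vivo and 12.80, 12.33 and 12.45 in vitro. All 6 Day 13 arrays lay above all 6 Day 7 arrays, and the Day 13 in vitro arrays lay above the Day 13 in vivo arrays. The rise was 7.45-fold in vivo (log2 2.90, SE 0.35, adjusted p = 0.00306) and 15.3-fold in vitro (log2 3.94, SE 0.35, adjusted p = 0.000456). HERPUD1 was the single gene of the 34 that passed the in vitro test under every alternative tried, with adjusted p between 3.69e-05 and 0.0484. Its in vivo call was lost when only the 6 arrays of that comparison entered the fit (adjusted p = 0.0928).

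DNAJC3, an ER co-chaperone that also restrains the translation-blocking kinase of the stress response, moved less. Its differences were 0.88 in vivo and 0.67 in vitro, neither past the threshold (adjusted p = 0.163 and 0.225), although the groups did not overlap in either origin.

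HSPA5 is the main Hsp70 chaperone of the ER lumen and the protein that holds the sensors inactive. Its values were 13.43, 13.96 and 14.06 on Day 7 in vivo, 13.77, 13.94 and 13.99 on Day 7 in vitro, 15.53, 15.03 and 15.36 on Day 13 in vivo and 15.55, 15.54 and 15.54 on Day 13 in vitro. The days did not overlap, and the in vivo and in vitro arrays of a day were close. HSPA5 rose 2.80-fold in vivo (95% interval of the log2 difference 1.08 to 1.89, adjusted p = 0.00269) and 3.12-fold in vitro (1.24 to 2.04, adjusted p = 0.00119). The highest value of any probe set was 16.496, and HSPA5 exceeded at least 99.8% of all probe sets on each Day 13 array, so this probe set worked near the top of the scale there. A second HSPA5 probe set, of lower signal, rose by 4.27 in vivo (adjusted p = 0.0446) and 6.01 in vitro (adjusted p = 0.0071) on the log2 scale. The in vivo call of the chosen probe set was lost when values were centred on 64 ribosomal protein genes or when the 6 arrays alone were fitted, and the in vitro call when the spike-in mean entered as a covariate, where the difference was 1.55 against 1.64 (adjusted p = 0.0635).

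HSP90B1 (GRP94), the ER member of the Hsp90 family, read 9.29, 9.59 and 10.13 on Day 7 in vivo and 11.99, 13.08 and 11.63 on Day 13 in vivo. In vitro it read 11.43, 10.35 and 11.61 on Day 7 and 14.57, 14.39 and 12.75 on Day 13. The day groups were apart in both origins, and at Day 7 the in vitro arrays all lay above the in vivo ones. The difference was 2.57 in vivo, short of the threshold (adjusted p = 0.0569), and HSP90B1 rose by 2.77 in vitro (adjusted p = 0.0264).

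CALR, the lectin-type chaperone calreticulin, had the widest spread of the ER genes. On Day 7 it read 4.17, 3.16 and 4.61 in vivo, where 2 of 3 arrays were above background, and 4.53, 5.56 and 4.76 in vitro. On Day 13 the in vivo arrays read 5.40, 8.49 and 4.80, with array 2 far above the others, and the in vitro arrays read 11.59, 10.19 and 8.09. CALR rose 32.1-fold in vitro (log2 5.00, SE 1.12, adjusted p = 0.0316). The difference was 4.19 without Day 13 in vitro array 1 and 5.94 without array 3, 3.14 without arrays 1 and 2, and 2.67 with the spike-in covariate (adjusted p = 1). The in vivo difference of 2.25 was not distinguishable from 0 (95% interval -0.31 to 4.81, adjusted p = 0.457). Its membrane-bound relative CANX, by contrast, stayed between 13.3 and 14.2 on all 12 arrays, with differences of 0.06 and 0.31 that did not pass.

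The other ER chaperones differed in size but not in sign. DNAJB9, an ER J-protein that binds HSPA5 and the sensor ERN1, rose 5.99-fold in vitro (adjusted p = 0.0218) from 9.93 ± 0.48 to 12.51 ± 0.59 (SD, n = 3). In vivo it went from 9.33 ± 0.93 to 10.99 ± 0.55 with overlapping arrays (adjusted p = 0.17). DNAJB11, another ER J-protein, had differences of 1.03 and 0.998 with groups apart in both origins and adjusted p of 0.114 and 0.0839. HYOU1, an ER nucleotide exchange factor, read 3.53 to 3.95 on all Day 7 arrays, and on Day 13 only in vivo array 2 (6.77) and in vitro arrays 1 and 2 (6.74 and 8.02) left the range of 4.11 to 4.55. SDF2L1, a partner of HSPA5, was near background everywhere, at 3.19 to 4.73, and did not pass in either origin.

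Among the enzymes that form and shuffle disulfide bonds, PDIA4 changed most. It read 6.18, 7.38 and 8.77 on Day 7 in vivo, 8.62, 9.02 and 9.79 on Day 7 in vitro, 10.85, 11.68 and 11.61 on Day 13 in vivo and 11.11, 10.74 and 11.52 on Day 13 in vitro. The Day 13 groups overlapped, and the lowest values were those of Day 7 in vivo arrays 1 and 2. PDIA4 rose 15.3-fold in vivo (log2 3.94, SE 0.62, adjusted p = 0.0107), and its in vitro difference of 1.98 did not pass (adjusted p = 0.106). The difference between these 2 day effects was -1.96 (95% interval -3.96 to 0.04, interaction adjusted p = 0.509), so the origins were not shown to differ. The in vivo call held in all 6 fits that each left out 1 array of the comparison, with differences of 3.31 to 4.60.

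P4HB, the archetypal protein disulfide isomerase, rose 3.03-fold in vitro (adjusted p = 0.00868), from 11.66, 11.55 and 11.36 to 13.34, 13.40 and 12.62. In vivo its 1.89-fold difference had groups that did not overlap and an adjusted p of 0.118. PDIA3, the isomerase that works with calreticulin on glycoproteins, rose 3.39-fold in vitro (adjusted p = 0.0303), from 10.50, 10.23 and 10.31 to 12.95, 12.26 and 11.11. Array 3 of Day 13 in vitro was the lowest of its group for both enzymes, and for PDIA3 it lay within the Day 13 in vivo range of 10.9 to 11.3. ERO1A, the oxidase that recharges PDI, had day differences of 1.29 and 0.73 that did not pass, and its arrays separated by origin and not by day. It read 5.50, 6.13 and 3.80 against 7.61, 8.18 and 6.53 on Day 7 and 6.46, 5.44 and 7.40 against 7.78, 8.03 and 8.70 on Day 13, in vivo against in vitro, with no overlap on either day.

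SEL1L, the scaffold of the ER ubiquitin ligase that disposes of misfolded proteins, was the measured degradation gene on the list. It spanned 8.32 to 10.5 on Day 7 and 8.46 to 11.1 on Day 13, and its differences of 0.21 and 1.41 did not pass (adjusted p = 1 and 0.285).

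The mitochondrial chaperonin moved modestly. HSPD1 (Hsp60) read 13.94, 14.36 and 14.53 on Day 7 in vivo, 14.34, 14.42 and 14.25 on Day 7 in vitro, 15.13, 14.81 and 14.77 on Day 13 in vivo and 15.37, 15.22 and 15.34 on Day 13 in vitro. It rose 1.96-fold in vitro (adjusted p = 0.00716) and was 1.55-fold higher in vivo without passing (adjusted p = 0.0668). HSPE1 (Hsp10), its lid protein, lies next to HSPD1 in the RefSeq gene table of the ARS-UCD2.0 assembly, and the 2 genes are known to share a promoter region. The HSPE1 differences were 0.73 in vivo and 0.63 in vitro (adjusted p = 0.343 and 0.34), of the same sign as those of HSPD1. HSPA9 (mortalin), the mitochondrial Hsp70, read between 10.8 and 11.9 on every array, and its differences of -0.21 and -0.09 did not pass.

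In the cytosol HSPH1, BAG3 and CRYAB rose in both origins and DNAJA1 in vitro. HSPH1 (Hsp110), a nucleotide exchange factor for Hsp70, read 11.29, 12.19 and 12.81 on Day 7 in vivo and 12.08, 12.43 and 12.19 on Day 7 in vitro. On Day 13 it read 15.43, 14.52 and 14.62 in vivo and 15.76, 15.64 and 15.48 in vitro. The days were clearly apart, and HSPH1 rose 6.76-fold in vivo (adjusted p = 0.00555) and 10.5-fold in vitro (adjusted p = 0.00133). Both calls held in every fit that left out 1 array of the comparison. HSPH1, HSPA1A and HSPD1 each read above 15 on 4 arrays, near the top of the scale, as HSPA5 and HSP90AA1 did on 6 and HSPA8 on 2. The in vivo call was lost when the 6 arrays alone were fitted or the gene's probe sets were averaged, and the in vitro call with the spike-in covariate (adjusted p = 0.0752).

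BAG3, a co-chaperone that links Hsp70 to autophagy, showed the largest difference of the 34 genes. It read 4.53, 3.29 and 7.90 on Day 7 in vivo, where 2 of 3 arrays were above background, and 6.73, 5.36 and 7.33 on Day 7 in vitro. On Day 13 it read 11.83, 12.61 and 11.20 in vivo and 11.23, 12.07 and 11.52 in vitro. The days lay more than 3 log2 units apart, and the origins overlapped on each day. BAG3 rose 99.9-fold in vivo (95% interval of the fold 17.9 to 558, adjusted p = 0.0128) and 35.04-fold in vitro (6.27 to 196, adjusted p = 0.025). The in vivo call held without any 1 array, with log2 differences from 5.67 without Day 7 in vivo array 2 to 7.97 without Day 7 in vivo array 3. The in vitro call was lost in 5 of the 6 fits that left out 1 array, those without any of the 3 Day 7 in vitro arrays or without Day 13 in vitro array 1 or 2, with differences of 4.57 to 5.56 over the 6.

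CRYAB, a small heat shock protein that holds unfolding proteins in solution, read 4.06, 3.72 and 4.95 on Day 7 in vivo and 4.07, 3.78 and 4.08 on Day 7 in vitro, all close above background. On Day 13 it read 8.62, 9.25 and 6.42 in vivo and 8.23, 8.53 and 7.07 in vitro, with array 3 lowest in both groups. CRYAB rose 14.5-fold in vivo (adjusted p = 0.0223) and 15.6-fold in vitro (adjusted p = 0.0134). The in vivo call was lost without array 1 or 2 of either group, and the in vitro call without Day 7 array 1 or Day 13 array 1 or 2. The in vivo call was also lost when Day 13 in vitro arrays 1 and 2, which are not part of that comparison, were left out of the shared fit. The differences over the fits without 1 array were 3.28 to 4.69 in vivo and 3.68 to 4.40 in vitro. HSPB2, the small heat shock gene that neighbours CRYAB in the RefSeq table, was not above background on any array.

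HSPA1A, the heat-inducible Hsp70, had the greatest spread within a group. On Day 7 in vivo it read 9.57, 8.91 and 14.77, so that array 3 lay with the Day 13 arrays and not with its own group. The other groups were tight, at 12.08, 12.84 and 12.94 on Day 7 in vitro, 15.61, 14.84 and 14.87 on Day 13 in vivo and 15.66, 15.63 and 15.58 on Day 13 in vitro. Differences of 4.03 in vivo and 3.01 in vitro had groups that did not overlap and did not pass (adjusted p = 0.18 and 0.257). Without Day 7 in vivo array 3, HSPA1A rose by 5.87 in vivo (adjusted p = 0.000294) and was higher by 3.38 in vitro than in vivo on Day 7 (adjusted p = 0.00997). Of 4 further HSPA1A probe sets above background, 2 read high on that array too: the probe set second in mean signal gave 6.86, 5.74 and 13.40 on the Day 7 in vivo arrays, and the next gave 6.16, 6.81 and 12.57. The other two, of lower signal, gave 9.16, 9.17 and 7.68, and 7.64, 8.08 and 7.68, with no rise on array 3. HSPA1A has a near-identical copy, HSPA1B, listed as a synonym in the RefSeq table, and the chosen probe set cannot be assigned to 1 of the copies.

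DNAJB1 (Hsp40), the J-protein partner of HSPA1A, was also highest of its group on Day 7 in vivo array 3 by the chosen probe set. It read 6.56, 6.28 and 10.02 on Day 7 in vivo and 11.998, 12.61 and 10.52 on Day 13 in vivo, and in vitro 9.69, 8.59 and 10.18 and then 13.36, 12.61 and 12.72. The differences of 4.09 and 3.41 fell short of the threshold (adjusted p = 0.0708 and 0.0871). A second DNAJB1 probe set had differences of 2.69 in vivo and 6.21 in vitro, and the latter passed (adjusted p = 0.00479). That probe set read 4.67, 4.28 and 4.60 on the Day 7 in vivo arrays, with no excess on array 3. In all, Day 7 in vivo array 3 was the highest of its group for 24 of the 34 genes, 12 of them among the 16 cytosolic genes, against 42.4% of the genes above background. Leaving it out raised the count of genes that rose in vivo from 6 to 10, adding P4HB, HSPD1, HSPA1A and DNAJB1.

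**Figure D4:**
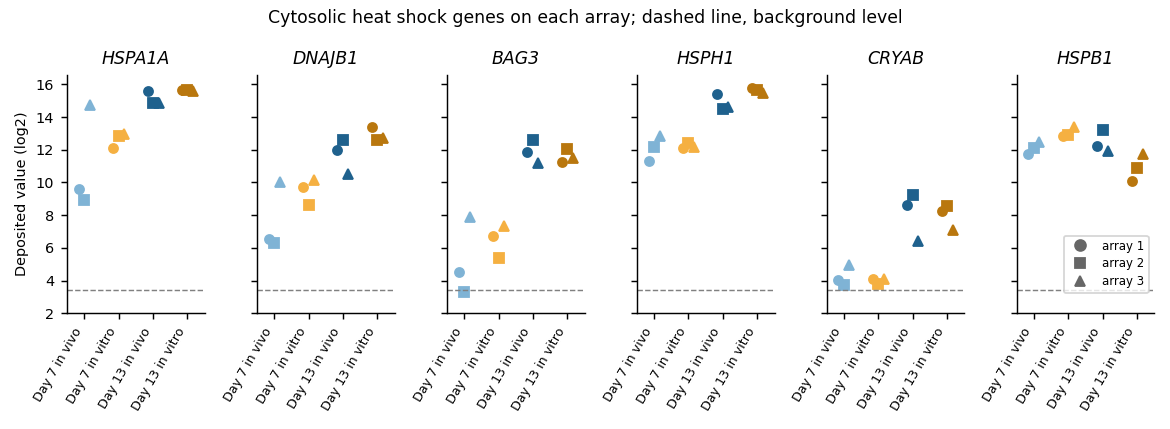
Deposited log2 value (y axis) of 6 cytosolic heat shock genes on each array, by group (x axis), with marker shape for the array number; the genes were chosen for the plot after their values were seen. Day 7 in vivo array 3 (triangle) lies at 14.77 for HSPA1A against 9.57 and 8.91, and HSPB1 is lowest in the Day 13 in vitro group.

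HSPB1 (Hsp27), a small heat shock protein, was the one gene of the list that fell. It read 12.86, 12.93 and 13.41 on Day 7 in vitro and 10.10, 10.87 and 11.72 on Day 13 in vitro, and it fell by 2.17 on the log2 scale, 4.49-fold (adjusted p = 0.0254). In vivo it read 11.73, 12.11 and 12.50 on Day 7 and 12.23, 13.18 and 11.90 on Day 13, a difference of 0.33 that did not pass (adjusted p = 0.925). The day effect in vitro minus that in vivo was -2.49 (95% interval -3.98 to -1.003), the only one of the 34 at an unadjusted p below 0.05 (0.00462), and it missed the threshold after adjustment (adjusted p = 0.204). A second HSPB1 probe set had day differences of 0.36 in vivo and -0.36 in vitro, neither past the threshold (adjusted p = 1 for both). In vitro it read 4.07, 8.48 and 9.34 on Day 7 and 6.25, 6.92 and 7.64 on Day 13. Day 7 in vitro array 1 thus lay far below its companions, which were above all Day 13 in vitro arrays. With the gene's probe sets averaged the fall did not pass.

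DNAJA1, a J-protein that works with constitutive Hsp70, read 5.21, 6.89 and 7.34 on Day 7 in vivo, 7.87, 7.02 and 7.03 on Day 7 in vitro, 8.89, 9.13 and 7.49 on Day 13 in vivo and 13.02, 12.45 and 9.64 on Day 13 in vitro. Day 13 in vitro arrays 1 and 2 stood far above array 3. DNAJA1 rose 21.1-fold in vitro (log2 4.40, SE 0.94, adjusted p = 0.0261), and the in vivo difference of 2.02 did not pass (adjusted p = 0.403). Without Day 13 in vitro arrays 1 and 2 the in vitro difference was 2.33 (adjusted p = 0.46).

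The constitutive chaperones and their co-factors changed little or did not pass. HSPA8 (Hsc70), the everyday cytosolic Hsp70, had day differences of -0.11 and 0.64, and HSPA4, an Hsp110 relative, of 0.22 and 0.09. HSP90AA1 and HSP90AB1, the cytosolic Hsp90 genes, had differences of 0.18 and 0.41, and of 1.51 and 1.33. The HSP90AB1 groups did not overlap between days in either origin (adjusted p = 0.15 and 0.143), and its probe set is of the type that can also match related transcripts. A second HSP90AA1 probe set gave 1.27 in vivo and -0.01 in vitro. The Hsp90 co-chaperones STIP1 and AHSA1 had differences of 0.71 to 1.14, and DNAJB6, a J-protein that blocks aggregation, of -0.44 and 0.13, none past the threshold.

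Neither heat shock factor rose. HSF1, the master regulator of the heat shock response, was close to background at 3.63 to 4.71 on all arrays and had the identical value of 3.88 on the 3 Day 7 in vivo arrays. HSF2, a related factor active in development, read 7.22, 8.79 and 8.38 on Day 7 in vivo, 7.10, 6.10 and 7.10 on Day 13 in vivo, 8.89, 9.09 and 8.31 on Day 7 in vitro and 9.37, 9.08 and 8.12 on Day 13 in vitro. The Day 13 in vivo arrays were the lowest. The in vivo day difference of -1.36 had groups apart and did not pass (adjusted p = 0.247), and the in vitro difference was 0.09.

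Counting separation instead of the model, the 3 Day 13 values lay above the 3 Day 7 values for 20 of 34 genes in vivo and 23 of 34 in vitro. They lay below for HSF2 in vivo and for HSPB1 in vitro. Over the 5803 named genes above background the Day 13 arrays lay wholly above for 14.6% in vivo and 21.5% in vitro, and wholly below for 16.1% and 23%. With the values centred on the 64 ribosomal protein genes, which moved the median of all probe sets by -0.50 in vivo and 0.14 in vitro, the differences were positive for 24 of 34 genes in vivo and 32 of 34 in vitro. Over all probe sets the in vivo calls were 408 higher and 503 lower as deposited, and 346 higher and 1438 lower with this centring.

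The number of in vitro calls depended on single arrays. Leaving out Day 7 in vitro array 1, 2 or 3 gave 5, 7 and 6 calls in place of 13, and leaving out Day 13 in vitro array 1 or 2 gave 5 each, while leaving out Day 13 in vitro array 3 gave 14. HERPUD1, HSPA5, P4HB, HSPD1 and HSPH1 passed in all 6 of these fits. CALR, HSP90B1, PDIA3, HSPB1, DNAJA1 and BAG3 passed in 1 of the 6, that without Day 13 in vitro array 3. DNAJB9 lost its call without Day 7 in vitro array 1 or 3 or Day 13 in vitro array 1 or 2. With the mean of the spike-in RNAs as a covariate HERPUD1 alone passed, and with Day 13 in vitro arrays 1 and 2 both left out HERPUD1, HSPA5 and HSPH1 did. The covariate is lowest on the Day 13 in vitro arrays, so lost calls in its fit cannot be assigned to the spike-in level. All 13 differences kept their sign in both fits. With the covariate the differences stayed close for HSPA5 (1.55), HSPH1 (3.09), HSPD1 (0.92), CRYAB (3.42) and BAG3 (6.12). They became smaller for PDIA3 (0.59), CALR (2.67), DNAJA1 (2.03), DNAJB9 (1.37), HSP90B1 (1.77), P4HB (1.11) and HSPB1 (-1.02). With these 2 arrays left out the differences stayed close for HERPUD1 (3.86), HSPA5 (1.64) and BAG3 (5.04) and became smaller for PDIA3 (0.76), HSP90B1 (1.62) and DNAJA1 (2.33).

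**Figure D5:**
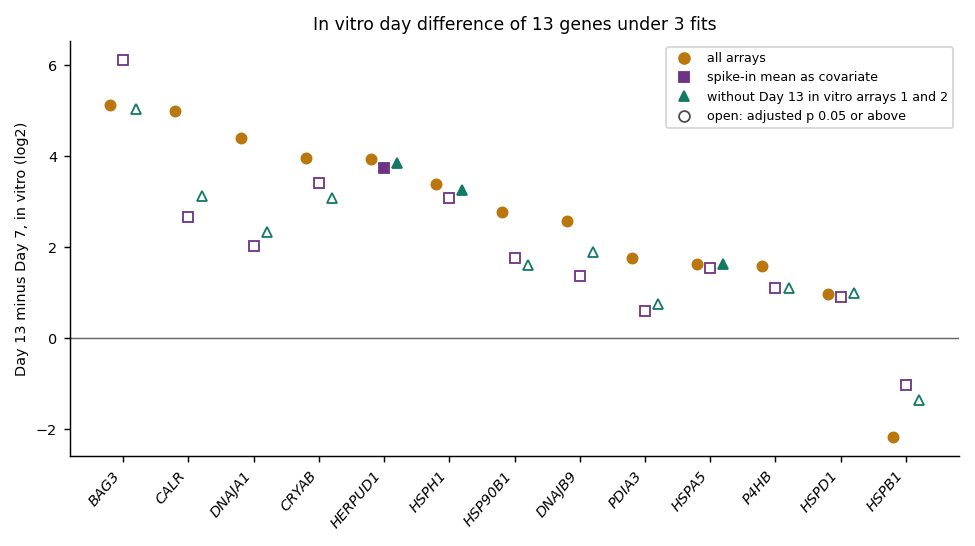
Day 13 minus Day 7 in embryos of in vitro origin (y axis, log2) for the 13 genes that passed the test (x axis), with all arrays, with the mean of the spike-in RNAs as a covariate, and without Day 13 in vitro arrays 1 and 2. Filled symbols passed the test: all 13 with all arrays, HERPUD1 alone with the covariate, and HERPUD1, HSPA5 and HSPH1 without the 2 arrays.

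Comparing origins on Day 7 asks whether culture left blastocysts with other chaperone levels than development in the animal. No gene passed with limma, against 0.414% of the 5803 genes and 0.208% of all probe sets. At an unadjusted p below 0.05 there were 4, each higher in vitro: HSPA4, ERO1A, PDIA4 and HSP90B1. The share of all genes at that unadjusted level was not counted. The ERO1A values given above were 4.90-fold higher in vitro (95% interval of the log2 difference 0.63 to 3.96, adjusted p = 0.532). HSPA4 was 1.5-fold higher (0.19 to 0.98, adjusted p = 0.471), with 13.08, 12.84 and 13.19 in vitro against 12.45, 12.14 and 12.76 in vivo. The in vitro arrays lay wholly above the in vivo arrays for 4 of 34 genes (HSP90B1, ERO1A, HSPA4 and HSPB1), and wholly below for none, against 13.1% and 6.17% of the 5803 genes. Of the 34 differences 30 were positive, with a median of 0.40, but with ribosomal protein centring, which moved the overall median by -0.53, the count was 16 and the median -0.14, so this direction depends on the scaling. Over the 5803 genes 60.6% were positive. Leaving out Day 7 in vivo array 3 added the HSPA1A call given above.

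On Day 13, where both origins had developed in recipients since transfer, no gene passed either, against 2.41% of the 5803 genes and 1.2% of all probe sets. At an unadjusted limma p below 0.05, 13 had higher values in vitro and 1, HSPB1, a lower value. The share of all genes at that unadjusted level was not counted, so these numbers have no background beside them. HERPUD1 came nearest, 3.02-fold higher in vitro (log2 1.59, SE 0.35, adjusted p = 0.0767). HSF2 was 4.25-fold higher (adjusted p = 0.0957), HSPA8 2.01-fold (adjusted p = 0.124), DNAJA1 9.18-fold (adjusted p = 0.155) and CALR 13.2-fold (adjusted p = 0.162). HSPA8 read 15.23, 15.26 and 14.99 in vitro against 14.49, 14.43 and 13.53 in vivo. HSPB1 was 2.91-fold lower (adjusted p = 0.16).

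The in vitro arrays of Day 13 lay wholly above the in vivo arrays for 12 of the 34 genes and wholly below for HSPB1, against 18% and 11.6% of the 5803 genes. Of the differences 25 were positive, with a median of 0.55, and 54.8% of the 5803 were. The count of calls rested on single arrays here as well. Without Day 13 in vitro array 3 there were 7 (HSP90B1, CALR, PDIA3, P4HB, DNAJA1 and HSF2 higher, HSPB1 lower), and without Day 13 in vivo array 1 there was 1, HERPUD1. Array 3 of Day 13 in vitro was the lowest of its group for 23 of the 34 genes, against 44.6% of the genes above background. It was also the array of that group with the highest spike-in mean, 12.99.

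Other genes of the same pathways were counted from lists drawn up by function, 141 measured genes in all. In vivo 11 of them rose and 1 fell between days, and in vitro 29 rose and 4 fell. That is 8.51% of the 141 in vivo and 23.4% in vitro, against 8.32% and 16.8% of the 5803 genes above background and 5.49% and 10.8% of all 9155 named genes, so the in vivo share lay near the background. The medians of the 141 differences were 0.32 and 0.20, below those of the 34 genes. The origins differed for 2 of 141 on Day 13, FKBP14 and BAG2, a share of 1.42% that lay below the 2.41% of the 5803 genes. On Day 7 they differed for none, against 0.414% of the 5803 genes (limma, 13 at an unadjusted p below 0.05). The share of all genes at that unadjusted level was not counted.

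The longest list, ER folding and translocation, had 7 of 46 genes higher in vivo (15.2%) and 17 higher and 1 lower in vitro (39.1%), against 8.32% and 16.8% of the 5803 genes. CRELD2, a secreted ER stress protein, rose 2.79 in vivo (adjusted p = 0.00132) and 2.23 in vitro (adjusted p = 0.00274) on the log2 scale. Its values ran from 7.60 to 8.86 on Day 7 and from 10.4 to 11.3 on Day 13. QSOX1, a sulfhydryl oxidase of the secretory pathway, rose by 4.93 and 3.56, and MANF, a chaperone-like factor released on ER stress, by 1.90 and 1.23. For MANF the in vitro call (adjusted p = 0.0387) was lost without Day 7 array 1 or 2 or without any of the Day 13 in vitro arrays. FKBP14, a prolyl isomerase of collagen folding, was not above background on any Day 7 in vitro array and read 8.18, 7.62 and 7.55 on Day 13 in vitro, at least 21.0-fold higher (adjusted p = 0.00208). On Day 13 in vivo it read 3.05, 3.74 and 4.94, with 2 of 3 arrays above background, and the origins differed by 3.87 (adjusted p = 0.0233). That origin call was lost in 7 of 15 alternatives, among them the fits without Day 13 in vitro array 1, Day 13 in vitro array 2 or Day 13 in vivo array 2.

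The degradation list gave 2 of 19 genes higher in vivo (10.5%, near the background of 8.32%) and 5 in vitro (26.3%, against 16.8%). SELENOK, a selenoprotein of the ER membrane, was the most even of all, at 11.4 to 11.6 on the 6 Day 7 arrays and 12.6 to 12.9 on the 6 Day 13 arrays. It rose by 1.37 in vivo (adjusted p = 1.79e-05) and 1.25 in vitro (adjusted p = 2.18e-05). VCP, the ATPase that pulls proteins out of the ER, rose by 0.59 and 0.90, but its in vivo call (adjusted p = 0.0369) was lost in 5 of the 6 fits without 1 array, all except that without Day 13 array 1, and the difference was 0.091 with ribosomal protein centring. The SELENOK in vivo difference was 0.87 with that centring (adjusted p = 0.058). UBE2J1, a ubiquitin-conjugating enzyme, was not above background on any Day 7 in vitro array and was at least 1.79-fold higher on Day 13 in vitro (adjusted p = 0.0105).

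Of 16 measured signalling genes of the ER stress response none passed the test as higher. In vivo 1 fell (6.25%) and in vitro 2 (12.5%), against 8.32% and 16.8% of the 5803 genes that passed in either direction. Over those genes 4.02% and 7.82% passed as higher, so few rises would be found in so short a list. At an unadjusted limma p below 0.05, 2 were higher and 2 lower in vivo, and 3 higher and 3 lower in vitro. The share of all genes at that unadjusted level was not counted. The medians were 0.17 and 0.00. MBTPS1, the protease that releases ATF6, fell by 0.97 and 1.17 (adjusted p = 0.00282 and 0.000783). Its 6 Day 7 values lay between 8.85 and 9.24 and its 6 Day 13 values between 7.82 and 8.20. NFYC, a subunit of the factor that binds ER stress promoters together with ATF6, fell by 1.83 in vitro (adjusted p = 0.0102).

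Of 45 other cytosolic chaperones and co-factors 2 rose in vivo, and 7 rose and 1 fell in vitro, with list medians of 0.11 and 0.00. These shares, 4.44% and 17.8%, lay below and near those of the 5803 genes, 8.32% and 16.8%. HSPB8, the small heat shock partner of BAG3, rose by 5.91 in vivo (adjusted p = 0.00652), from 3.43, 3.43 and 6.19 to 10.92, 10.09 and 9.78, with Day 7 array 3 again high. In vitro it rose by 3.91 (adjusted p = 0.026), a call lost without Day 7 array 1 or 2 or without any of the Day 13 in vitro arrays. FKBP4, an Hsp90 co-chaperone of steroid receptors, rose by 2.0 in vivo (adjusted p = 0.0459), a call lost without array 1 or 2 of either group. PTGES3 (p23), another Hsp90 co-chaperone, rose by 1.73 in vitro (adjusted p = 0.00798). BAG2, an Hsp70 co-factor, rose by 1.81 in vitro (adjusted p = 0.00852) and was 1.62 higher in vitro than in vivo on Day 13 (adjusted p = 0.044). This origin call was lost without any of the 3 Day 13 in vivo arrays, or without Day 13 in vitro array 1 or 2. None of 15 other mitochondrial chaperones and proteases passed between days in either origin (limma, 0 and 1 at an unadjusted p below 0.05, a level at which all genes were not counted).

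PRDX4, an ER peroxiredoxin, and VBP1, a subunit of the prefoldin co-chaperone of actin and tubulin, were the 2 pathway genes whose day effect differed between origins. They made up 1.42% of the 141 genes, against 0.724% of the 5803 genes and 0.4% of all probe sets, so few calls stand behind this share. PRDX4 fell by 0.89 in vitro (adjusted p = 0.00121) and had a difference of -0.04 in vivo. VBP1 fell by 0.98 in vitro (adjusted p = 0.000616) and had a difference of -0.10 in vivo. The interaction passed with adjusted p = 0.0488 for PRDX4 and 0.039 for VBP1, calls that were lost in 16 and 15 of 20 alternatives. Of the 14 pathway genes named above that passed in vitro, SELENOK and MBTPS1 passed with the spike-in covariate as well. In that fit the differences of NFYC (-1.01), PTGES3 (0.80) and BAG2 (0.82) were smaller by over 1.5 times. Those of CRELD2 (2.24), FKBP14 (4.66), QSOX1 (4.27), MANF (1.61), UBE2J1 (1.93) and HSPB8 (5.53) were about as large or larger, and did not pass.

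Further probe sets of the 34 genes were compared with the chosen ones. There are 25 such probe sets, of which 12, for 8 genes, were above background on at least 3 arrays. Their day differences had the sign of the chosen probe set in 11 of 12 cases in vivo and 11 of 12 in vitro. For origin the sign was shared by 6 of 12 on Day 7 and by 10 of 12 on Day 13. Sizes varied more than signs: the second HYOU1 probe set had differences of -0.13 in vivo and 0.03 in vitro against 1.42 and 2.62 for the chosen one, and the second probe sets of HSP90AA1 and HSPB1 were described with those genes.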

How the data were processed

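RNA of 12 embryo pools was labelled in 2 amplification cycles from 75 ng of total RNA and hybridised to 1-colour Affymetrix bovine arrays, per the labels' protocols. The values analysed are the normalized log2 values per probe set that the authors deposited. The tools listed in the submitters' processing notes are RMA and GCRMA, for probe set summaries, and limma. No version is given, and which summary made the values is not given in the sources used here. Both compress or floor low signals, so fold changes of dim genes are bounded by the floor of 2.23.

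Of 24128 probe sets 112 are controls. The other 24016 were fitted with limma 3.58.1 (R 4.3.3), using 4 group means, all 12 arrays and eBayes without trend, with 5 contrasts and Benjamini-Hochberg adjustment at 0.05; the steps were tested on simulated data. Gene symbols came from the platform annotation, and 13292 probe sets carry 1 symbol. The 34 genes are all described, and other pathway genes are given as counts, with values for up to 3 per list and contrast by adjusted p. The members and lists were chosen with earlier results of these data known, and no test treats them as independent evidence. The labels call the pools biological replicates and do not relate them to animals, so p-values measure the spread between these pools. Alternatives were quantile normalization, centring on ribosomal protein genes, a filter on low values, another variance moderation, fewer arrays in the fit, a replicate block, a spike-in covariate, leaving out arrays, and averaging a gene's probe sets.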

Additional observations from a re-analysis of the deposited data

Results flagged for a closer look

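Among the genes named here, 2 had a day effect that differed between origins by the interaction test, and both are genes outside the list of 34. That is 1.42% of the 141 other pathway genes, against 0.724% of the 5803 genes above background and 0.4% of all probe sets. For PRDX4, an ER peroxiredoxin, the in vitro day effect minus the in vivo one was -0.849 (limma adjusted p = 0.0488). Its values were 11.79, 11.56 and 11.85 on Day 7 in vivo, 12.18, 12.01 and 12.04 on Day 7 in vitro, 11.75, 11.56 and 11.78 on Day 13 in vivo and 11.11, 11.17 and 11.30 on Day 13 in vitro. The in vitro arrays were the highest of all on Day 7 and the lowest of all on Day 13. The PRDX4 call was lost in 16 of 20 alternatives, with adjusted p from 0.0136 to 0.655.

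For VBP1, a prefoldin subunit, the same difference was -0.8816 (limma adjusted p = 0.039). Its values were 11.56, 11.70 and 11.82 on Day 7 in vivo, 12.26, 11.95 and 12.16 on Day 7 in vitro, 11.59, 11.51 and 11.68 on Day 13 in vivo and 11.10, 11.22 and 11.10 on Day 13 in vitro, the same arrangement as for PRDX4. The VBP1 call was lost in 15 of 20 alternatives, with adjusted p from 0.016 to 0.575. With centring on ribosomal protein genes the differences were -0.21 for PRDX4 and -0.24 for VBP1.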

How the results depend on the processing

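The counts of genes past the threshold depended on the fit. In vivo between days, 6 calls became 11 when probe sets near background were left out and 1 (HSPE1, none of the 6) when only the 6 arrays compared entered, where fewer arrays estimate the spread. In vitro, 13 became 8 with the 6 arrays alone, 1 with the spike-in covariate and 3 without Day 13 in vitro arrays 1 and 2. Between origins on Day 13, none became 2 (CALR and DNAJA1) with ribosomal protein centring and 5 (HERPUD1, CALR, HSPB1, DNAJA1 and HSF2) with the filter on low values. Beyond these constructions the cause was not tested.

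With the replicate number as a block, the in vitro count was 8 and the in vivo count 5, while the other comparisons stayed at 0. Of 18 pairs of same-numbered arrays 3 had a correlation of deviations over 0.1 (median -0.064, range -0.647 to 0.425). Between the Day 7 in vivo and in vitro arrays it was -0.072, 0.425 and 0.307 for arrays 1, 2 and 3. Arrays of different numbers were not compared, so this check cannot decide whether the numbers pair the pools. The labels do not say that they do, and they were not taken as pairing.

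Leaving out 1 array at a time gave 5 to 10 calls in vivo, 5 to 14 in vitro, 0 to 1 between origins on Day 7 (HSPA1A, without Day 7 in vivo array 3), 0 to 7 on Day 13, and 0 to 2 for the interaction (PDIA3 and HSPB1, without Day 13 in vitro array 3). No called difference changed sign in any alternative. The sign was the same in every fit for 28 of 34 genes in vitro and 26 in vivo between days, and for 16 and 21 between origins on Day 7 and Day 13. The fit with only the arrays compared is the full fit for the interaction. With 3 arrays per group and a floor on low signals, changes near background (HSF1, SDF2L1, HYOU1, CRYAB on Day 7) are the least well measured.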
